A study of Mus musculus with 7 samples.

Results

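The clustered protocadherin genes lie in tandem on mouse chromosome 18. They encode cell adhesion proteins that are best known from neurons, in which each cell uses a small and variable set of them. In the alpha and gamma families a single large variable exon, which has its own promoter, is joined to constant exons shared by the whole family, whereas each beta gene is a single exon. CTCF, a zinc finger protein that binds an asymmetric DNA motif, and cohesin, the ring complex that holds loops of chromatin together, are known to link these promoters to enhancers that lie after the alpha and the gamma constant exons. The last variable exons of the alpha and gamma families, called C-type, are known to be regulated apart from the others.

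CTCF and Rad21, a subunit of cohesin, had been mapped by chromatin immunoprecipitation with sequencing (ChIP-seq) in livers of untreated male CD-1 mice 8 weeks of age, with 4 CTCF and 3 Rad21 libraries. The 3 deposited lists hold peaks called on the pooled libraries of each factor and the CTCF sites sorted by the study into classes, so there is no value for a single library and no spread between replicates. All members were peaks from 50 kb before the first to 200 kb after the last gene whose symbol begins with Pcdha, Pcdhb or Pcdhg, at chromosome 18 positions 37039939 to 38201527 of build mm9. The region held 54 of 76683 CTCF peaks, 31 of 67369 Rad21 peaks and 37 of 52436 classified CTCF sites. Peak strength is given as the number of fragments at the summit, for which a median CTCF peak of the whole list had 69 and a median Rad21 peak 47. The 95% intervals beside these numbers are exact Poisson intervals and cover counting error only. Intervals beside shares are Wilson intervals, which treat starts or peaks as independent, and so they serve as description only. The liver label could not be checked against marker genes, since the lists hold no expression, and in a whole tissue fewer bound cells and less binding per cell cannot be told apart.

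The mm9 annotation used (GENCODE vM1) lists 25 of these symbols, because all 14 alpha exons lie inside its Pcdha11, where Pcdha3 alone has an entry of its own, and 20 of 22 gamma exons lie inside its Pcdhgc5. The first gamma exons, Pcdhga1 and Pcdhga2, lie in no annotated gene. The gene starts were therefore taken as the start codons of the 58 variable exons, found as reading frames of at least 2000 bp in the mm9 sequence, of which 35 begin at an annotated coding start. They comprise 14 alpha exons (12 alternate and 2 C-type), 22 beta genes and 22 gamma exons (12 of subfamily A, 7 of subfamily B and 3 C-type). Beta names and Pcdha3 come from the annotation. The other names were assigned by the matching spacing of genes in the RefSeq table of assembly GRCm38.p6: no spacing between neighbouring starts differed by more than 459 bp, while the closest starts lie 4142 bp apart, and so these names rest on position and not on an entry in the annotation. The nearest relative by protein identity was in the same group for 55 of the 58 exons, the exceptions being Pcdhac1, Pcdhac2 and Pcdhgc3.

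CTCF peaks were present at starts of all 3 families, with a median of 34 fragments at alpha, 40 at beta and 170 at gamma starts, and Rad21 was present at 0 of 14, 5 of 22 and 8 of 22. A CTCF summit lay within 1 kb of 32 of the 58 starts (55.2%; 95% Wilson interval 42.5 to 67.3%). At the outermost start codons of 22343 protein-coding genes elsewhere the share was 39.5%. At 14 of the 32 starts, 4 alpha, 7 beta and 3 gamma, the peak is not in the list of classified sites. The study limited that list to peaks found in at least 2 livers, and neither share above has this limit. A Rad21 summit lay within 1 kb of 13 starts (22.4%; 13.6 to 34.7%), against 37.4% elsewhere. Every one of these 13 starts also had CTCF, and 34.8% of the starts elsewhere had both. Among starts with CTCF the share that also had Rad21 was thus 13 of 32 in the cluster, and 88.2% elsewhere. The CTCF peaks at starts elsewhere were stronger, with a median of 92 fragments (quartiles 54 and 188) against 42.5 in the cluster. Of all CTCF peaks of the strength range of the alpha, beta and gamma starts, 44.2%, 52.4% and 66.9% shared a Rad21 peak. The beta and gamma ranges take in 38728 and 69953 of 76683 CTCF peaks, at starts or not. The shares for beta and gamma are therefore not matched for strength. At outermost transcription starts in place of start codons, the shares elsewhere were 51.0% for CTCF, 48.5% for Rad21 and 46.0% for both. The differences from the rest of the genome were not tested, since neighbouring genes are not replicates and the lists pool all mice.

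**Figure D1:**
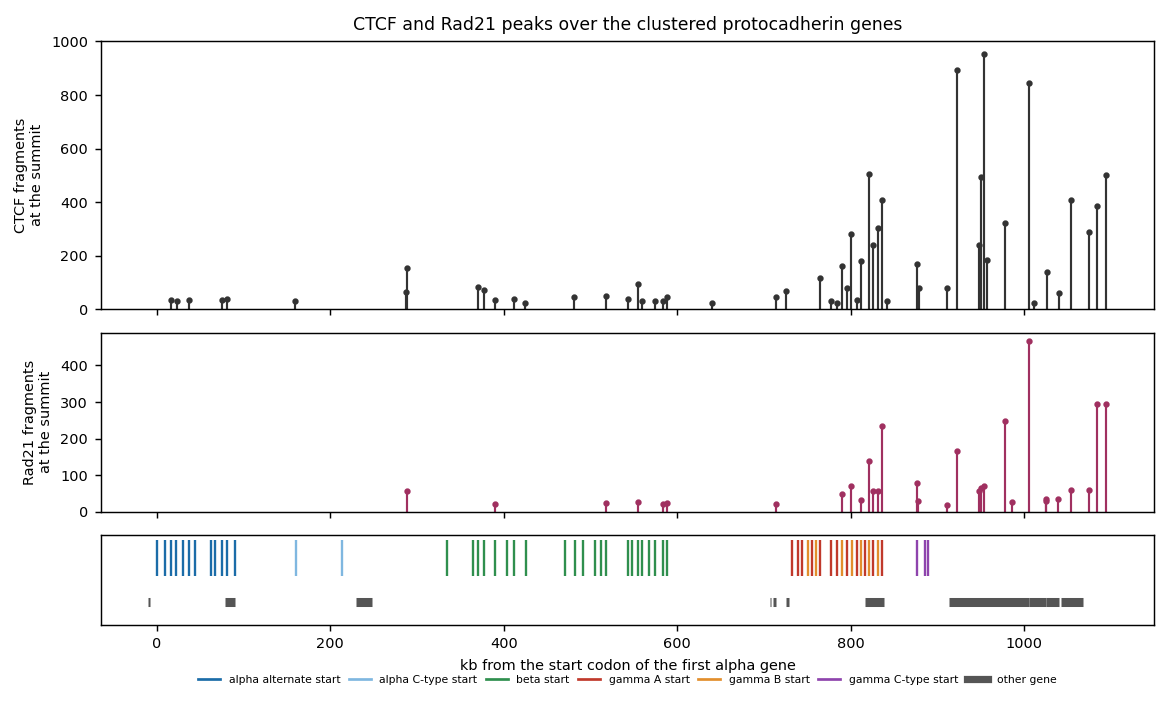
Fragments at the summit of each CTCF peak (top) and Rad21 peak (middle) against the distance in kb from the start codon of the first alpha gene, with the starts of the 58 variable exons and the bodies of other genes below. Each line is 1 peak; CTCF summits reach 37 fragments over the alpha genes, 95 over the beta genes, 505 over the gamma genes and 955 after the cluster.

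The alpha starts carried weak CTCF peaks and no Rad21 peak. CTCF was found at 6 of 14 alpha starts (42.9%; 21.4 to 67.4%), against 39.5% of starts elsewhere. These peaks had 33 to 37 fragments at the summit, which is between percentiles 23.4 and 28.5 of all CTCF peaks. Pcdha11 had the highest value with 37 fragments (26.1 to 51.0), followed by Pcdha6 with 35, Pcdha3 and Pcdha10 with 34 each, and Pcdha4 and Pcdhac1 with 33 each. Their intervals overlap, so these 6 starts could not be ordered by strength. The C-type exon Pcdhac1 had 33 fragments (22.7 to 46.3), and Pcdhac2, the last alpha exon, had no peak of either factor. No Rad21 peak was found in the alpha gene zone as a whole, 0 of 6 CTCF peaks being shared, whereas 44.2% of all CTCF peaks of 33 to 37 fragments shared a Rad21 peak.

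Of the alpha peaks, only those of Pcdha11 and Pcdhac1 are in the list of classified sites, both as lone CTCF sites, the class of CTCF sites without cohesin. The other 4 were left out of that list, which the study limited to peaks found in at least 2 livers. The peak assigned to Pcdha4 differed from the rest in position, since its summit lay 507 bp after the start codon, inside the exon. The Pcdha11 summit also lies in the untranslated region of Gm10545, an annotated gene on the opposite strand.

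Some beta genes had Rad21 besides CTCF. CTCF was found at 13 of 22 beta starts (59.1%; 38.7 to 76.7%), against 39.5% of starts elsewhere. The beta peaks had 25 to 95 fragments and a median of 40. Pcdhb17 had 95 fragments (76.9 to 116.1), Pcdhb3 had 84 (67.0 to 104.0) and Pcdhb4 had 74 (58.1 to 92.9). These intervals overlap with each other but not with that of Pcdhb8, the weakest, at 25 fragments (16.2 to 36.9). Of the 9 beta starts without CTCF, Pcdhb1 differs in that it had no CTCF motif before its start codon either. The remaining 8, Pcdhb2, Pcdhb6, Pcdhb9, Pcdhb11, Pcdhb12, Pcdhb13, Pcdhb16 and Pcdhb19, each had one.

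Rad21 was found at 5 beta starts with 22 to 28 fragments, which is at most percentile 20.8 of the Rad21 list. Pcdhb17 had 28 fragments (18.6 to 40.5), Pcdhb14 had 25, Pcdhb22 had 23, and Pcdhb5 and Pcdhb21 had 22 each. When only peaks with a deposited score of at least 100 were used, 1 of these 5 starts kept its Rad21 peak. The strongest CTCF peaks of the family after Pcdhb17, at Pcdhb3 and Pcdhb4, had no Rad21 peak, and among all CTCF peaks of 25 to 95 fragments 52.4% shared one. The site at Pcdhb3 is listed by the study as an anchor of a topologically associating domain (TAD), a class whose stated criteria do not include Rad21. It is the only TAD anchor at a start of the 58.

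The first 6 gamma exons, Pcdhga1 to Pcdhgb2, had no peak of either factor, whereas 13 of the 16 that follow had CTCF. All 5 bound starts of the 7 of subfamily B had both factors (71.4%; 35.9 to 91.8%), with 163 to 505 CTCF fragments. Of the 7 bound starts of the 12 of subfamily A, 2 had both factors, Pcdhga11 and Pcdhga12 (16.7% of 12; 4.70 to 44.8%), and their 242 and 408 CTCF fragments lie within the range of subfamily B. The Wilson intervals of both subfamilies overlap, but they treat neighbouring exons as independent, so the subfamilies could not be compared by them. At starts elsewhere the share with both factors was 34.8%. The strongest CTCF peak at a start of the whole cluster was at Pcdhgb7, with 505 fragments (461.9 to 551.0) at percentile 94.9 of all CTCF peaks. Pcdhga12 followed with 408 (369.4 to 449.6) and Pcdhgb8 with 302 (268.9 to 338.0), and these 3 intervals do not overlap.

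CTCF strength did not follow position alone. Pcdhgb5 with 281 fragments (249.1 to 315.8) lies between Pcdhga8 with 80 (63.4 to 99.6) and Pcdhga9 with 34 (23.5 to 47.5). Pcdhgb6 with 180 fragments is followed by Pcdhga10, at which no peak was listed. At the proximal end of the bound part Pcdhga5 had 117 fragments (96.8 to 140.2), but its neighbours Pcdhga6 and Pcdhga7 had 32 and 22. Across the 12 bound A and B starts, CTCF strength and chromosomal position had a Spearman's rho of 0.77, given as a description over neighbouring sites of the same pooled libraries.

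Rad21 strength at the gamma starts ranged from 33 to 235 fragments. Pcdhga12, the last exon of subfamily A, had 235 (205.9 to 267.1), at percentile 94.3 of the Rad21 list, and Pcdhgb7 had 139 (116.8 to 164.1). Their order was thus the reverse of that for CTCF. The C-type exon Pcdhgc3 had 80 Rad21 fragments (63.4 to 99.6) and 170 CTCF fragments (145.4 to 197.6). A further Rad21 peak of 29 fragments without CTCF lay 768 bp inside the Pcdhgc3 exon. The other C-type exons, Pcdhgc4 and Pcdhgc5, had no peak of either factor. Of all CTCF peaks of 22 to 505 fragments, the range of the gamma starts, 66.9% shared a Rad21 peak. This range takes in 69953 of 76683 CTCF peaks, and so the share is close to that of the whole list (67.3%).

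**Figure D2:**
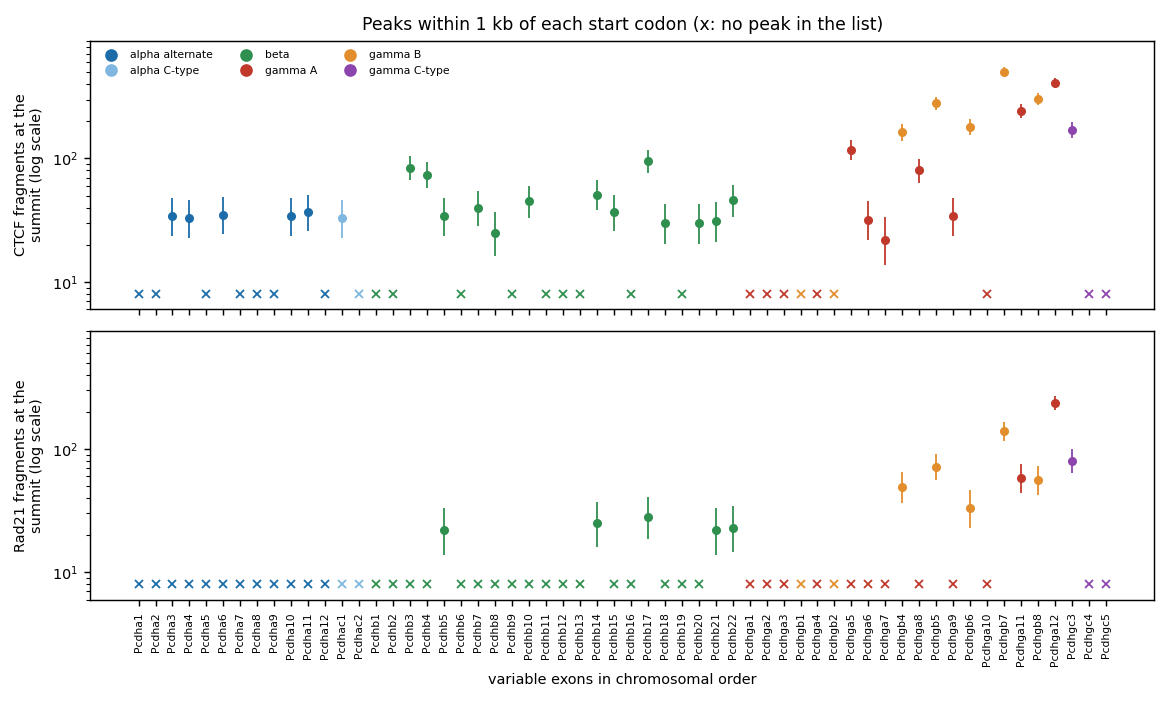
Fragments at the strongest CTCF (top) and Rad21 (bottom) summit within 1 kb of each of the 58 start codons, on a log scale, in chromosomal order and coloured by group; bars are exact 95% Poisson intervals, and a cross marks a start with no listed peak. CTCF values are 33 to 37 at the alpha starts and reach 505 at Pcdhgb7, and Rad21 is listed at 0 alpha, 5 beta and 8 gamma starts.

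Local background bears on the deposited fold in the gamma cluster. Whether it was estimated from a control library or from the ChIP reads themselves is not given in the sources used here. The background estimate at CTCF summits was 6.0 fragments at each alpha and beta start but 22.3 to 23.4 at Pcdhgb7, Pcdhga11, Pcdhgb8 and Pcdhga12. Pcdhgb7 thus had a lower fold (20.7) than Pcdhgb5 (26.4) in spite of its higher fragment number. Fragments were therefore used as the measure of strength.

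Of the 32 CTCF summits, 31 lay before the start codon, at 123 to 269 bp from it, and the median of all 32 was 215 bp before it. Relative to the start codon, with negative values before it, the median was at -187.5 bp for alpha, -227 bp for beta and -222 bp for gamma starts. All 13 Rad21 summits lay 163 to 267 bp before the start codon. At starts elsewhere with a CTCF peak the summit lay before the start codon in 57.0%, with quartiles from 332 bp before to 111 bp after it. Since the first transcribed base of these promoters is not annotated for most alpha and gamma exons, distances from it were not computed.

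A CTCF motif in the direction of transcription preceded most alpha and beta starts, bound or not. A 19-base motif was learnt from 2000 anchor sites of odd-numbered autosomes. A match was a score reached by 5% of windows that extend 100 bp to either side of a point 2000 bp away from a CTCF summit. The search before start codons covered 400 bp, for which starts elsewhere in the genome give the background. On even-numbered autosomes other than 18 it gave the deposited strand at 97.9% of 15495 matched sites. In the 400 bp before the start codon the motif matched at 10 of 12 alternate alpha exons, 1 of 2 alpha C-type exons, 21 of 22 beta genes and 2 of 22 gamma exons. This is 34 of 58 starts, against 20.8% elsewhere. All 34 best matches lay on the strand of the gene, against 52.6% of matches elsewhere. They were centred 113 to 296 bp before the start codon.

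Motif matches and peaks were not distributed alike. CTCF was present at 19 of the 34 starts with a match and at 13 of the 24 without one. The 19 include Pcdha4, whose CTCF summit lies 507 bp inside the exon, near a separate match. The Pcdha4 match 195 bp before the start codon has no listed peak over it. The starts without a match but with CTCF were Pcdha10 and 12 gamma exons, among them the strongest, Pcdhgb7. In the list of classified sites, 9 of the 10 listed gamma starts carry no motif entry, as do 17.4% of all listed sites. All 9 motifs deposited at starts, 2 alpha, 6 beta and 1 gamma (Pcdhga12), are on the + strand, the strand of the genes. Across the 32 bound starts the motif score and CTCF fragments had a Spearman's rho of -0.21, and across the 13 bound beta starts of 0.10; these describe neighbouring sites of 1 pooled list.

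A short shared element was looked for in addition, since promoters of this cluster are known for a conserved sequence element with the core CGCT. These letters, searched on the strand of the gene from 100 to 300 bp before the start codon, were present at 54 of 58 starts and at 32.9% of starts elsewhere. The window was chosen after the summit distances were seen. They were present at all 12 gamma A and all 7 gamma B exons, and absent at Pcdha10, Pcdhb13, Pcdhgc4 and Pcdhgc5. The search overlaps with the motif above: at 32 of the 34 matches CGCT lay within 1 base of a position 5 bases after the motif centre. Of the 54 starts with CGCT, 31 had a CTCF peak and 23 had none, so CGCT was also present at 23 of the 26 starts without CTCF. At 29 of the 31 the summit lay within 50 bp of the nearest or the farthest such site. Since the window was set around the summits, this closeness is partly built in, and no background share is given for it.

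**Figure D3:**
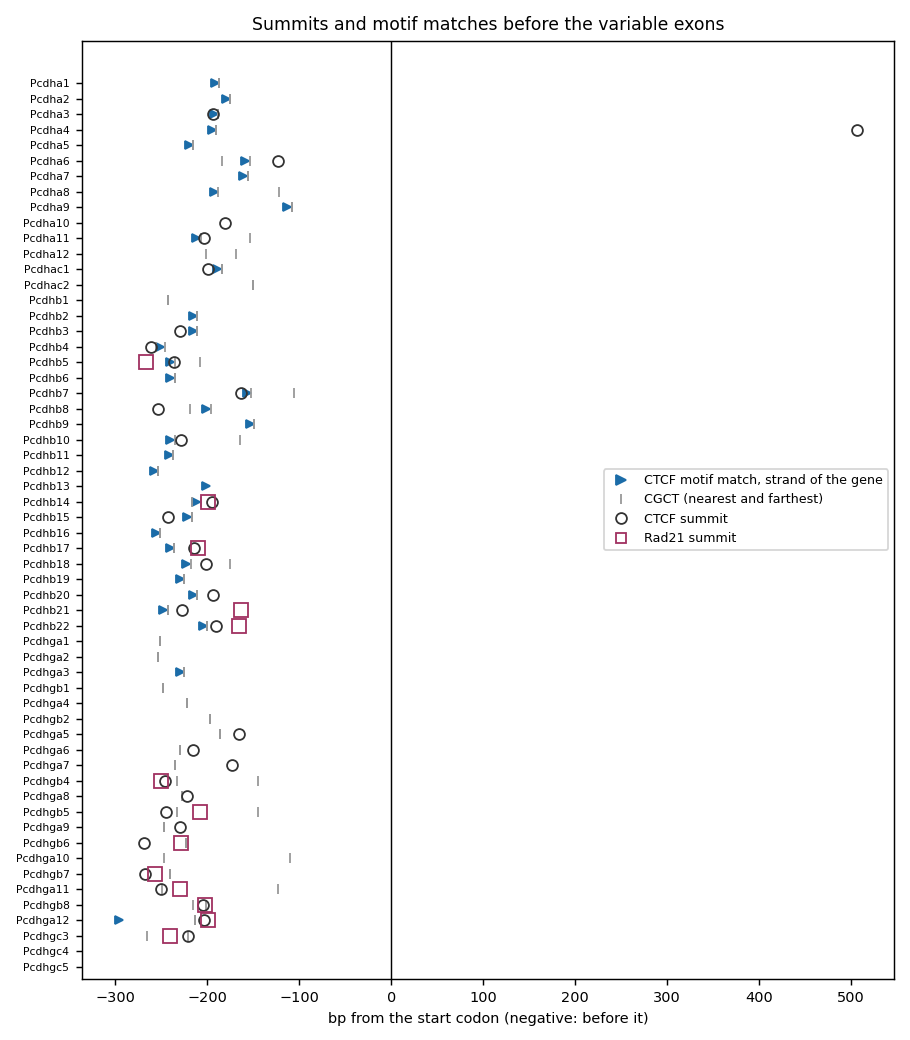
Distance in bp from the start codon of each of the 58 variable exons (rows, in chromosomal order) to the matched CTCF motif (arrowheads, all in the direction of the gene), to CGCT (ticks), and to CTCF (circles) and Rad21 (squares) summits. Except for Pcdha4, whose CTCF summit is 507 bp inside the exon, the summits lie 123 to 269 bp before the start codon, also at gamma exons without a motif match.

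Base composition and mappability were compared between starts with and without CTCF. The median GC content within 500 bp of the start was 46.35% at bound and 46.25% at unbound starts, and the ratio of observed to expected CpG was 0.58 and 0.57. Within the gamma family it was 0.68 and 0.57, and for gamma B exons 0.68 and 0.58. The values over all starts mix families, with a median CpG ratio of 0.73 for alpha alternate, 0.39 for beta, 0.60 for gamma A and 0.67 for gamma B exons. The share of 50-base stretches within 1 kb that occur once in the genome had a median of 97.8% over the 58 starts and 99.6% over 559 genes elsewhere. It was 96.4% at bound and 100% at unbound starts, and for gamma B exons 93.4% and 100%, all as medians. It was lowest at Pcdha7 (78.0%), which had no peak. From 100 to 300 bp before the start codon it was 100% at all starts but Pcdhgb6 and Pcdhgb7 (90.1% each). The reference sequence comes from another mouse strain than CD-1, and the part of sequence differences between them in the missing peaks was not tested.

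The interval between the alpha and beta genes held a pair of CTCF peaks 932 bp apart, in the part of the locus in which alpha enhancers are known. Since the lists hold no coordinates of these enhancers, the peaks are given by position only. The weaker one (37377010 to 37377343, mm9) had 64 CTCF fragments (49.3 to 81.7), no Rad21, and is listed as a lone site. The other (37377893 to 37378282) had 155 CTCF fragments (131.6 to 181.4) and 57 Rad21 fragments (43.2 to 73.9) and is listed as a TAD anchor. Both exceeded each of the 6 alpha starts, and the interval of either does not overlap with that of Pcdhac1, although that of the weaker one overlaps with that of Pcdha11. Both deposited motifs are on the − strand, opposite to the motifs before the alpha starts. No CTCF peak was found over the alpha constant exons or in the 49 kb before the cluster.

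Between the beta and gamma genes 3 CTCF peaks were found, of which 1 shared Rad21. It lies in an intron of Taf7, a subunit of the general transcription factor TFIID, with 47 CTCF fragments (34.5 to 62.5) and a Rad21 peak of 21 (13 to 32.1) at percentile 5.86 of that list. Of the lone peaks, 1 with 70 fragments (54.6 to 88.4) lay 354 bp from the start of 3222401L13Rik, and 1 with 22 fragments lay between genes. No peak was assigned to Slc25a2, a mitochondrial carrier gene of the same interval. In the gamma zone, a further 3 CTCF peaks lay away from the starts. They had 33 fragments in an intron between Pcdhga12 and Pcdhgc3, 80 fragments in the Pcdhgc3 exon, and 79 fragments with 19 Rad21 fragments in the 3′ untranslated region of the last constant exon. Gm6756, Gm10544 and SNORA40 held no summit of either factor, and Gm16882, a noncoding RNA gene on the opposite strand, spans the starts from Pcdhga10, which had no peak, to Pcdhga12.

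Beyond the gamma constant exons the peaks were stronger than at most gene starts. The 200 kb after the cluster, where gamma enhancers are known to lie, held 14 CTCF and 14 Rad21 peaks, with medians of 353.5 and 61.5 fragments. The strongest CTCF peaks had 955 (895.4 to 1017.5), 894 (836.4 to 954.6) and 846 (790.0 to 905.0) fragments, at percentiles 98.7 to 99.0 of the list. The first pair lies 41.8 and 10.4 kb after the last constant exon, in introns of Diap1, which encodes a formin that nucleates actin filaments. The peak of 846 fragments lies 93.8 kb after it, 191 bp before Diap1, and also had the strongest Rad21 peak of the region, with 466 fragments (424.7 to 510.3).

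Strong CTCF did not always come with strong Rad21 in this interval. The CTCF peak of 955 fragments had 72 Rad21 fragments (56.3 to 90.7). By contrast, a pair of peaks 172 and 183 kb after the cluster, beyond Arap3, a regulator of small GTPases, had 385 and 500 CTCF fragments but 295 Rad21 fragments each (262.3 to 330.7). A peak in an intron of Arap3 had 409 CTCF and 59 Rad21 fragments. The CTCF peaks without Rad21 were those of 185 fragments in Diap1, 139 in the untranslated region of Rell2 and 22 in an exon of Hdac3, a histone deacetylase gene. Rad21 without CTCF was found with 28 fragments in Diap1, and with 30 and 35 fragments on either side of the Hdac3 start. The start of Fchsd1 had both, with 60 CTCF and 34 Rad21 fragments.

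Across the region 27 of 54 CTCF peaks shared a Rad21 peak (50%; 37.1 to 62.9%), against 67.3% of the whole list. The count was 0 of 6 over the alpha genes, 5 of 13 over the beta genes, 9 of 16 over the gamma genes and 11 of 14 after the cluster. CTCF peaks numbered 2.32 per 100 kb over the alpha genes, 5.05 over the beta genes, 8.84 over the gamma genes and 7.00 after the cluster, where the genome as a whole had 2.89. Of the 37 classified sites 4 were TAD anchors, 8 were intra-TAD anchors (anchors of loops predicted inside a TAD), 15 were cohesin-bound sites of neither kind, and 10 were lone sites. Over the whole class list these make up 11.2%, 17.3%, 51.4% and 20.1%. The interval after the cluster held 2 of the 4 TAD anchors and 7 of the 8 intra-TAD anchors, the eighth being Pcdhga12. The study chose intra-TAD anchors by CTCF and Rad21 peak strength and motif strand among other criteria, so this class and strength are not independent. It chose TAD anchors by motif strand and distance to a TAD boundary, among CTCF peaks found in all replicates.

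The strand of the CTCF motif changed along the locus. Within the gene zones 9 of 10 deposited motifs were on the + strand, the exception being the site in the last gamma constant exon. Both motifs between the alpha and beta genes were on the − strand, both between the beta and gamma genes were on the + strand, and after the cluster 6 of 10 were on the − strand. With the learnt motif at all pooled peaks, 18 of 20 matched sites of the gene zones were on the + strand, all of them at alpha or beta genes, and 6 of 11 after the cluster were on the − strand. Between the beta and gamma genes the learnt motif matched 1 site on each strand. At the peak of 955 fragments the deposited strand was − and the best learnt match was on the + strand.

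**Figure D4:**
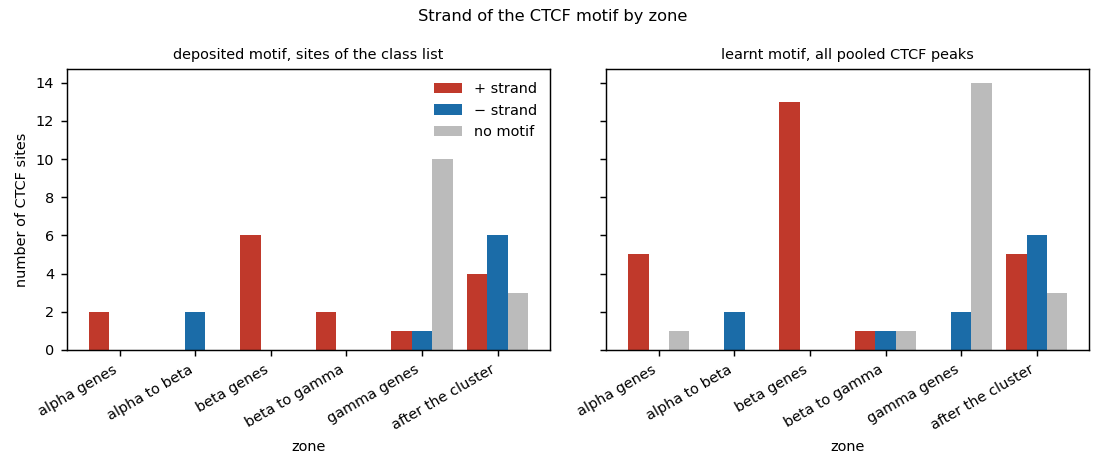
Number of CTCF sites with a motif on the + strand (the strand of the protocadherin genes), on the − strand, or with no motif, by zone of the locus, for the deposited motif of the classified sites (left) and the learnt motif at all pooled CTCF peaks (right). In the beta zone all motifs are on the + strand (6 deposited, 13 learnt), between the alpha and beta genes both are on the − strand, and 14 of 16 peaks of the gamma zone have no learnt match within 100 bp of the summit.

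The class list also marks overlap with public liver data for the cohesin subunits Stag1 and Stag2 and for topoisomerase Top2b. The columns have no header, and their names rest on the column order in the study's description. At the 18 listed starts, Stag2 was marked at 17, the exception being Pcdhga5, and Stag1 at 13. Over all listed sites, Stag2 is marked at 88.1% and Stag1 at 70.6%. Both starts listed with alpha genes, Pcdha11 and Pcdhac1, were marked for Stag1 and Stag2 although the pooled Rad21 list has no peak there. The same held for Pcdhb3 and Pcdhb7, while Pcdhb4 and Pcdhga8, also without Rad21, were marked for Stag2 alone. Pcdhga5, without Rad21 too, had neither mark. Top2b was marked at 2 of the 18 listed starts, Pcdhga12 and Pcdhgc3, and at 9 of the 13 listed sites after the cluster, against 54.8% of all listed sites.

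Genes of other clusters and protocadherins elsewhere were examined by the same rule for comparison. Of 12 protocadherin genes outside the cluster, 2 (Pcdh7 and Pcdh18) had CTCF within 1 kb of the start codon and 1 (Pcdh18) had Rad21. Of 40 Hox genes, another tandem array of developmental genes, 12 had CTCF and 7 had both. Over all genes elsewhere the shares were 39.5% and 34.8%, and among the 58 clustered starts the counts were 32 and 13.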

How the data were processed

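The authors pooled reads of the 4 CTCF and of the 3 Rad21 libraries and mapped them to mm9 with Bowtie2, keeping unique reads, and called peaks with MACS2. The deposited score is 10 times the −log10 q-value at 76682 of 76683 CTCF and 67357 of 67369 Rad21 peaks. The deposited fold is the ratio of summit fragments to the background nearby with 1 added to each. The deposited −log10 p-value is that of a Poisson distribution with this background. Fragments and background were solved from fold and p, and were whole within 0.1 at 76681 of 76683 CTCF and 67367 of 67369 Rad21 peaks. The depth of each library was not used. The deposited motif score and strand are the authors' best motif in each site.

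A factor was called at a start when a summit lay within 1 kb; peaks sharing at least 1 bp were called shared. One outermost start per annotated gene had been planned. The change to 58 start codons, in frames of at least 2000 bp with over 30% protein identity to beta genes, was made after the peaks were seen, and the CGCT search was added then too. Members and lists were chosen with earlier results of these data known. No test was planned or run. Every start is counted, and values are given for the strongest CTCF and Rad21 start of each family, all C-type exons, Pcdhb1, the 3 strongest peaks of each factor and zone, one-factor peaks in zones with at most 5, and other genes; values outside this rule were chosen after they were seen. Scripts were tested on simulated data and run with SciPy 1.17.1, NumPy 2.4.6, Numba 0.67.0, pandas 2.3.3, pysam 0.24.0, Matplotlib 3.10.9 and Python 3.11.15.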

Additional observations from a re-analysis of the deposited data

How the results depend on the processing

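The counts of starts with CTCF, Rad21 or both (32, 13 and 13 of 58) were 31, 13 and 13 with a window of 500 bp, the same with 2 kb, with any base of a peak and with frames of at least 1500 bp, and 30, 9 and 9 with a score of at least 100. With any annotated transcript start of the 25 annotated genes they were 16, 6 and 6, and with the outermost start of each, which start codons replaced as the main choice after the data were seen, 14, 5 and 5, because the annotation merges the alpha exons and 20 of the 22 gamma exons into a gene each and leaves out the other 2 gamma exons. Elsewhere in the genome the shares with CTCF, Rad21 and both were 32.6%, 31.8% and 28.0% with 500 bp, 36.1%, 33.8% and 31.8% for all annotated genes, and 51.0%, 48.5% and 46.0% at outermost transcription starts. Shared CTCF peaks of the region (27) numbered 25 with summits within 100 bp or a reciprocal overlap of 50%, and 21 of 50 with both scores at least 100. The strongest CTCF peak was the same in 4 of 6 zones by fold and in 5 by score, and the strongest Rad21 peak in 4 and 5 of 5. The share of unique stretches had a median of 100% within 500 bp. Leaving out libraries was not possible with pooled lists. No paired analysis was possible because the lists carry no replicates and no test was run. A start without a listed peak had no call at this depth, which does not show absence of binding.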
